A study of Mus musculus with 6 samples.

Results

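Mitral and tufted (M/T) cells are the excitatory projection neurons of the olfactory bulb (OB), and 8 genes that mark or serve them are described here in cells sorted from the bulbs of mice with and without the transcription factor Sox9 in astrocytes. The 8 genes are Tbx21, Tbr1, Eomes, Cdhr1, Slc17a7, Slc17a6, Reln and Cck. They were taken by symbol, and each symbol matched 1 of the 24421 rows that the 6 normalized tables share. All 8 were tested, since each averaged 1 normalized count or more across the libraries.

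RNA was sequenced from 3 control and 3 KO libraries, each from 1 adult male mouse. An AAV carrying GFAP-iCre-P2a-TurboRFP was injected into both bulbs of every animal. KO animals were Sox9fl/fl, so that iCre removed the floxed Sox9, and controls were C57BL/6J mice, labelled WT, without floxed alleles. TurboRFP-positive cells were collected by fluorescence-activated cell sorting 4 weeks after injection, directly into lysis buffer, so the sort itself was not re-run for purity, which the methods instead judge from cell type markers in the sequencing. The GFAP promoter, active mainly in astrocytes, drove both the recombinase and the reporter, and both groups carry the virus. The floxed line is B6.129S7-Sox9tm2Crm/J, a C57BL/6 background with a 129-derived segment around the allele, whereas the controls carry no such segment, and the effects of that segment and of the deletion cannot be told apart.

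M/T cells receive odor input from olfactory sensory neurons in the glomeruli, are inhibited there and in deeper layers by granule and periglomerular interneurons, and send glutamatergic axons to the olfactory cortex. During development the T-box factors Tbr1, Eomes (Tbr2) and Tbx21 (T-bet) are switched on in these neurons and help to set their identity. Cdhr1 is a cadherin-family adhesion protein of mitral cell dendrites, Slc17a7 (VGLUT1) and Slc17a6 (VGLUT2) load glutamate into synaptic vesicles, reelin (Reln) is a secreted signal of the extracellular matrix, and cholecystokinin (Cck) is a neuropeptide that marks many tufted cells. None of these genes is an astrocyte marker. Several are used by other cells too: Tbx21 and Eomes act in T and NK lymphocytes, and Slc17a7, Tbr1 and Cck are used by excitatory neurons of the cortex.

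The depth ranged from 18242129 to 86906527 reads on genes, and in the deposited normalized counts each library was scaled by a size factor of its own. The value of 1 read ran from 0.395 in KO replicate 2, the deepest library, to 1.58 in control replicate 3, so low values carry a large counting error. Sox9 itself was 5556 ± 881 normalized counts in controls (mean ± SD, n = 3) and 58.2 ± 5.88 in KO (n = 3), with every KO library below every control. The libraries differed broadly between groups: with limma and Benjamini-Hochberg adjustment over 18413 genes, and a change of at least 1.5-fold, 28.8% of the genes were lower in KO and 22.2% were higher. This split depends on the scaling: 56.4% of the called genes were lower as deposited, 43.5% after quantile normalization and 67.8% with every library brought to the same total. The summed level of 10 astrocyte markers ranged from 489926 to 549280 normalized counts in controls and from 34203 to 44271 in KO, while that of 11 microglia and macrophage markers ranged from 165617 to 193967 in controls and from 580269 to 687093 in KO. The 8 genes were a small part of the RNA in both groups, summing to between 2765 and 3679 normalized counts in controls and between 990.5 and 1503 in KO.

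Of the 8 genes, 5 fell in KO (Eomes, Cdhr1, Slc17a6, Reln and Cck), 0 rose, and 3 did not pass the test (Tbx21, Tbr1 and Slc17a7). The share of all tested genes called lower was 28.8%. At an unadjusted p below 0.05 the count of higher genes among the 8 was also 0, and edgeR and DESeq2 each called 0 higher. The median log2 fold change of the 8 genes was -1.33, against -0.07 for all genes tested. For the same 5 genes every KO library lay below every control library, a separation found for 34.7% of all genes tested. In these bulk libraries fewer cells of a type and less RNA per cell cannot be told apart. Pan-neuronal genes moved in the same direction (values below), and the part of a changed neuronal admixture in the values of the 8 genes was not tested.

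**Figure D1:**
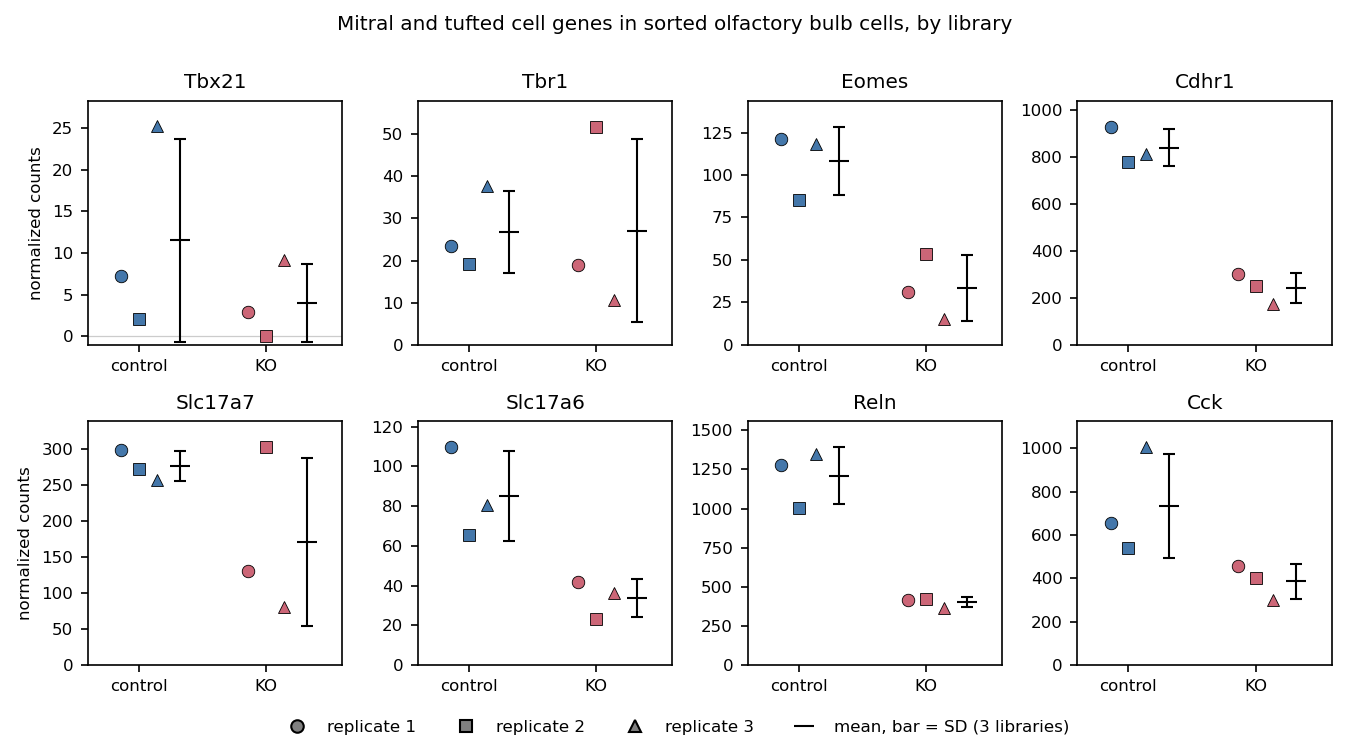
Normalized counts (vertical axis, linear, separate scale in each panel) of the 8 genes in each library of the control and KO groups, with symbols for the replicate number and the mean with its SD over 3 libraries to the right of each group. Cdhr1 lies between 778 and 926 in controls and between 175 and 299 in KO, whereas Slc17a7 and Tbr1 overlap because KO replicate 2 is at 302.0 and 51.7.

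The upstream sequences of Cdhr1, Eomes, Reln and Cck are shown because these genes fell together while belonging to different functional classes. Slc17a6, which has 2 start sites, fell too but is not printed, so these 4 are not all the genes that fell. Each printed sequence is the 250 bases before the RefSeq start site in GRCm38.p6 (mm10), read 5′ to 3′ on the strand of the gene. Cdhr1 lies at chr14:37098348-37098597 on the minus strand, Eomes at chr9:118477939-118478188 on the plus strand, Reln at chr5:22344706-22344955 on the minus strand and Cck at chr9:121495695-121495944 on the minus strand. Capitals mark matches to 2 of the 5 motifs searched, the TATA box TATAA and the E-box CACGTG.
Cdhr1: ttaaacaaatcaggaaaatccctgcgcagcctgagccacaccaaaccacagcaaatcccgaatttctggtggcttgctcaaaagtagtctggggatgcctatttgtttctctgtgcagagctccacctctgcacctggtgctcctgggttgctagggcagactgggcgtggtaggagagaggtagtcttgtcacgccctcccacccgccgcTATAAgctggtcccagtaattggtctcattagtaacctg
Eomes: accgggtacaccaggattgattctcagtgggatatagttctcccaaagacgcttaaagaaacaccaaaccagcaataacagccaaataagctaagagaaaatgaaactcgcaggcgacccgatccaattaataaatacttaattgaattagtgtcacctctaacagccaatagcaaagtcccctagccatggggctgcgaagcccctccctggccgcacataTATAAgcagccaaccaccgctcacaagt
Reln: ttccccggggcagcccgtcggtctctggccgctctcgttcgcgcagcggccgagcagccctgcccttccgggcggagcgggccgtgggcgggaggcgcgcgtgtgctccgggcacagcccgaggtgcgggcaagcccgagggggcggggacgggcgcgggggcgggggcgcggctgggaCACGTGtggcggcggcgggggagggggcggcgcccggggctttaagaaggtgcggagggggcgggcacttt
Cck: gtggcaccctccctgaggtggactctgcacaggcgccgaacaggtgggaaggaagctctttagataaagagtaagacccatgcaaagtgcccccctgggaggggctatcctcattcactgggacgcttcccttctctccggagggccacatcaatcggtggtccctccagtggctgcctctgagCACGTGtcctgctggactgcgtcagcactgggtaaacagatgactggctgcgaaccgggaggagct
Cdhr1 and Eomes each held a TATA box, beginning 39 and 28 bases before the start, and Reln and Cck each held the palindromic E-box, 71 and 66 bases before it. Within the window of 300 bases that runs from 250 before to 50 after the start, TATAA or its reverse complement TTATA occurred in 24.9% of 32851 mouse promoters and CACGTG in 7.15%. The T-box core TCACACC (reverse complement GGTGTGA) and the SOX core ACAATG (reverse complement CATTGT) were in none of the windows of the 8 genes, and occurred in 3.98% and 12.6% of all promoters. The homeodomain core TAATTA, found in 5.29% of all promoters, was present at Tbr1 and at 1 of 2 start sites of Slc17a6, and overlaps none of the other letters searched. The GC content of the printed stretches was 53.2% for Cdhr1, 46.4% for Eomes, 80% for Reln and 60% for Cck, and no motif searched was common to the 4. These matches are descriptions of the letters alone.

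Cdhr1 (chr14:37077857-37098347, minus strand, 4332 bp of exon) was called in every setting tried. Controls 1, 2 and 3 held 926, 778 and 810.2 normalized counts and the KO libraries, in the same order, 299, 248.7 and 175, from 514 to 1130 reads in controls and from 115 to 630 in KO. The groups did not overlap, and the lowest control was above the highest KO library by more than the whole range within either group. Cdhr1 fell by 1.83 on the log2 scale (SE 0.19, limma, adjusted p = 1.55e-05). The mean was 3.48 times higher in controls. Under all 17 alternative settings the fold change stayed between -2.15 and -1.55 and the call was kept.

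Among the T-box factors, Eomes was the gene that fell. Eomes (chr9:118478212-118486132, plus strand) was at 121, 85.3 and 118 normalized counts in controls and at 30.8, 53.7 and 15.2 in KO. These values rest on 75 to 124 reads in controls and on 31, 136 and 10 reads in KO. All KO libraries were below all controls, although KO replicate 2 was more than 3 times as high as KO replicate 3. The log2 fold change was -1.83 (SE 0.43, limma, adjusted p = 0.0040), and quantile normalization ended the call. In the annotation 118 bp of Eomes exons are shared with Gm33460 on the opposite strand, and no source used here says whether the counting used strand.

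Tbr1 and Tbx21 were low, uneven between libraries of a group and not called. Tbr1 (chr2:61802930-61814114, plus strand) was at 23.4, 19.3 and 37.8 normalized counts in controls and at 18.9, 51.7 and 10.6 in KO. The highest and the lowest of the 6 libraries were both KO libraries, and their exact 95% Poisson intervals, which cover counting error only, were 43.2 to 61.4 for KO replicate 2 (131 reads) and 4.28 to 21.9 for KO replicate 3 (7 reads). The means, 26.8 ± 9.75 in controls and 27.1 ± 21.7 in KO (SD, n = 3 each), gave a ratio of KO to control of 1.01. The log2 fold change of -0.22 (SE 0.57, limma, adjusted p = 0.756) changed sign with the scaling and with the library left out. Tbx21 (chr11:97098071-97115331, minus strand), the factor most restricted to M/T cells within the bulb, was at 7.31, 2.06 and 25.2 normalized counts in controls and at 2.98, 0 and 9.11 in KO. Those values are 5, 3 and 16 reads against 3, 0 and 6 reads. By the limit of 3 reads that a count of 0 allows, the level in KO replicate 2 could be up to 1.18 normalized counts. The groups overlapped, and the log2 fold change of -1.35 had a standard error of 0.99 (limma, adjusted p = 0.264). The libraries of a group differed by more than counting error, with exact 95% Poisson intervals of 0.426 to 6.03 for control replicate 2 and 14.4 to 41.0 for control replicate 3.

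The other T-box genes were given by a list of 14. Of the 10 tested, 1 fell and 1 rose, with a median log2 fold change of -0.76. Over all genes tested, 28.8% were called lower and 22.2% higher. The gene that rose was the most abundant, Mga, a large nuclear protein with a T-box and a helix-loop-helix domain, from 4824, 4808 and 5640 normalized counts in controls to 8052, 8242 and 8436 in KO (log2 fold change 0.70, limma, adjusted p = 7.18e-05). Its increase was below 1.5-fold under quantile normalization and with every library brought to the same total. Tbx6 was at 53.2 ± 7.21 normalized counts in controls and 81.0 ± 16.3 in KO (limma, adjusted p = 0.104). Every KO library of Tbx6 was above every control, and with quantile normalization it was called higher (log2 fold change 1.40, limma, adjusted p = 0.0014). Tbx18 was at 29.8 ± 16.2 normalized counts in controls and 28.1 ± 6.08 in KO (adjusted p = 0.966). The gene that fell, Tbx3, is named after its values were seen, with 35.6 ± 15.6 and 14.1 ± 11.6 normalized counts (adjusted p = 0.0484) and an overlap between the groups. T, Tbx5 and Tbx20 were at 0 in all 6 libraries.

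The vesicular glutamate transporters went different ways in KO replicate 2. Slc17a6 (chr7:51622006-51671119, plus strand) was at 109.6, 65.4 and 80.4 normalized counts in controls and at 41.7, 23.3 and 36.5 in KO. KO replicate 2 was the lowest library and the groups did not overlap. Slc17a6 fell by 1.31 on the log2 scale (SE 0.35, limma, adjusted p = 0.0075), and under quantile normalization the fall was 0.44 and not called. Slc17a7 (chr7:45163949-45176142, plus strand) was at 298, 272 and 257 normalized counts in controls and at 130.0, 302.0 and 80.5 in KO. KO replicate 2 was the highest of all 6 libraries here, with 765 reads and an exact 95% Poisson interval of 281 to 324, while the other KO libraries were below every control. The log2 fold change was -0.90 (SE 0.39, limma, adjusted p = 0.0668). Without KO replicate 2 Slc17a7 was lower by a log2 fold change of -1.42 (adjusted p = 0.00119), and it was also called with every library brought to the same total (-1.14, adjusted p = 0.0281).

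The ratio of Slc17a7 to Slc17a6 made the departure of that library plain. It was 2.72, 4.16 and 3.20 in controls, 3.12 and 2.21 in KO replicates 1 and 3, and 13.0 in KO replicate 2. The ratio of Slc17a7 to Cdhr1 was 0.322, 0.350 and 0.317 in controls and 0.435, 1.21 and 0.461 in KO, with every KO library higher. The ratio of Tbr1 to Eomes was 0.193, 0.226 and 0.320 in controls and 0.613, 0.963 and 0.700 in KO, again with no overlap. These ratios were chosen after the values were seen and were not tested.

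KO replicate 2 was the highest KO library for 13 of 14 pan-neuronal genes, against 35.1% of all genes tested. For the 8 M/T genes the count was 4, not far from that share. Reln was among these 4, although KO replicates 1 and 2 were nearly equal for it (418 and 421 normalized counts). Among 8 genes used by excitatory neurons of the cortex, also chosen after the values were seen, KO replicate 2 was the highest KO library for 6. Some of these genes were also high in the bulb controls, with Fezf2 at 104, 83.3 and 143 normalized counts. The list therefore does not mark cortical cells here. Camk2a, a kinase of excitatory synapses, was at 2252, 2059 and 2424 normalized counts in controls and at 416, 1500 and 314 in KO. Neurogranin (Nrgn), a calmodulin-binding protein of forebrain neurons, was at 70.1, 33.7 and 59.9 in controls and at 7.94, 72.2 and 9.11 in KO. Neurod6, a factor of cortical pyramidal neurons, was at 4.38, 0 and 0 normalized counts in controls and at 0, 8.29 and 0 in KO. These values rest on 3 reads in control replicate 1 and 21 in KO replicate 2, the deepest library. By the limit of 3 reads, the level could be up to 2.98 in KO replicate 1 and 4.56 in KO replicate 3. Emx1, at 0 normalized counts in KO replicate 2, was an exception. The highest ratio of KO replicate 2 to the next KO library among 13167 genes averaging 50 or more belonged to Prtg, and Slc17a7 had rank 79, Eomes 303, Reln 4590, Cck 8587, Cdhr1 9810 and Slc17a6 12657. The source of these reads was not tested.

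The rest of the SLC17 family was given by a list of 7 genes. Of these 3 were tested, and of these 2 rose, 0 fell and 1 did not pass. Over all genes tested, 22.2% were called higher. Slc17a5, the lysosomal sialic acid transporter sialin, was at 824, 764 and 586 normalized counts in controls and at 1513, 1846 and 1832 in KO (log2 fold change 1.26, SE 0.14, limma). Slc17a9, the vesicular nucleotide transporter, was at 52.6, 61.9 and 44.1 in controls and at 169, 116 and 144 in KO (log2 fold change 1.42, SE 0.27). For both, every KO library was above every control. Slc17a8 (VGLUT3), at 0, 14.5 and 1.58 in controls and 0.993, 0 and 4.56 in KO, gave no call (limma, adjusted p = 0.639). Of the 3 vesicular glutamate transporters, only Slc17a6 was called lower, and differences between the transporters were not tested.

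Reln (chr5:21884454-22344702, minus strand, 23738 bp of exon) had the smallest adjusted p of the 8 genes. Its normalized counts were 1279, 1003 and 1346 in controls and 418, 421 and 366 in KO. The KO libraries agreed closely, with an SD of 7.67% of their mean, and the lowest control was more than 2 times the highest KO library. Reln fell by 1.58 on the log2 scale (SE 0.14, limma, adjusted p = 4.05e-06). Over all alternatives its fold change ranged from -1.91 to -1.44. An antisense gene, Gm10475, shares 246 bp of exon with Reln in the annotation.

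Reelin binds the receptors Vldlr and Lrp8 (ApoER2), which pass the signal through the adaptor Dab1 and the kinases Fyn and Src. Of the 9 receptor and adaptor genes tested, 5 fell, 0 rose and 4 did not pass, with a median log2 fold change of -0.89. Over all genes tested, 28.8% were called lower. Beyond the most abundant members, the genes of the following sentences were singled out after their values were seen. Dab1 was at 1854, 1827 and 2117 normalized counts in controls and at 57.6, 155 and 53.2 in KO, and fell by 4.61 on the log2 scale. Lrp8 and Vldlr fell too, with log2 fold changes of -3.33 and -3.10, and so did both kinases, with -1.48 for Fyn and -0.89 for Src. These receptor and adaptor genes are expressed by glia as well as neurons. The 3 most abundant genes of the list were not called: Pafah1b1 (Lis1), a regulator of the dynein motor, was at 8273 ± 333 in controls and 7943 ± 331 in KO, Crk at 5108 ± 379 and 4843 ± 484, and Rapgef1, which passed the adjusted p but not 1.5-fold, at 2619.6 ± 83.1 and 3309 ± 327. The ratio of Reln to Dab1 was 0.690, 0.549 and 0.636 in controls and 7.26, 2.72 and 6.89 in KO, so that Reln exceeded its adaptor in every KO library and in no control, on normalized counts not divided by length.

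Cck (chr9:121489824-121495694, minus strand, 1305 bp of exon) was at 655, 540.2 and 1004 normalized counts in controls and at 457, 403 and 298 in KO. Control replicate 3 was well above the other controls, and the highest KO library was close to the lowest control. Cck fell by 0.90 on the log2 scale (SE 0.23, limma, adjusted p = 0.0068). Without KO replicate 3 the fall was 0.72 and not called (adjusted p = 0.0509). Its receptor Cckbr was at 97.9, 101.2 and 137 in controls and at 7.94, 45.4 and 33.4 in KO, and fell by 2.204 on the log2 scale (SE 0.55, limma, adjusted p = 0.0054). The other receptor, Cckar, had 3, 0 and 1 reads in controls and 0 in each KO library, and was too low to test.

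Divided by exon length, the levels of the 8 genes kept the same order in both groups. In controls Cck was the highest at 562 ± 185 normalized counts per kb, followed by Cdhr1 at 193 ± 18.1, Slc17a7 at 51.1 ± 3.87, Reln at 50.9 ± 7.65, Eomes at 26.1 ± 4.80, Slc17a6 at 15.8 ± 4.17, Tbr1 at 4.89 ± 1.78 and Tbx21 at 4.63 ± 4.88 (SD, n = 3). The pairs Slc17a7 and Reln, and Tbr1 and Tbx21, overlapped between libraries, and every other pair of neighbours was apart. In KO the means were 296 for Cck, 55.6 for Cdhr1, 31.7 for Slc17a7, 16.9 for Reln, 7.99 for Eomes, 6.26 for Slc17a6, 4.93 for Tbr1 and 1.62 for Tbx21. There, only Cck stayed apart from its neighbour Cdhr1 and Reln from its neighbour Eomes. By mean normalized count over the 6 libraries Reln lay above 67.7% of all tested genes, Cdhr1 above 60.3% and Tbx21 above 13.5%.

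The other M/T genes were given by a list of 16, of which 15 had a row and 14 were tested. Of these, 7 fell, 0 rose and 7 did not pass, with a median log2 fold change of -1.02. Of all genes tested, 28.8% were called lower. The count that fell was 5 with quantile normalization and 6 with a minimum mean of 10. Latexin (Lxn), a carboxypeptidase inhibitor, was the most abundant and was at 1472, 1402 and 1237 normalized counts in controls and at 512, 546 and 618 in KO (log2 fold change -1.29, limma, adjusted p = 5.83e-06). Netrin-G1 (Ntng1), a membrane-anchored axon guidance protein, was at 338, 299 and 298 in controls and at 62.5, 51.7 and 50.1 in KO (-2.49, adjusted p = 2.81e-06). Doc2g, a C2-domain protein, was at 241, 289.7 and 205 in controls and at 56.6, 66.7 and 51.7 in KO (-2.05, adjusted p = 2.67e-05). For these 3 genes KO replicate 2 did not stand apart. The other genes that fell were Barhl2, Piezo2, Ms4a15 and Shisa3, named after their values were seen. All 7 had every KO library below every control, a separation found for 34.7% of all genes tested. Lhx1, Uncx, Kcng1 and Nts, which did not pass, had mean levels below 5 normalized counts in both groups. Barhl2, which was called, was also low, with 7, 9 and 5 reads in controls and 1, 0 and 0 in KO. Coch and Ly6g6e, also not called and also named after their values were seen, were at 64.1 and 51.1 normalized counts in controls and at 84.2 and 66.9 in KO.

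**Figure D2:**
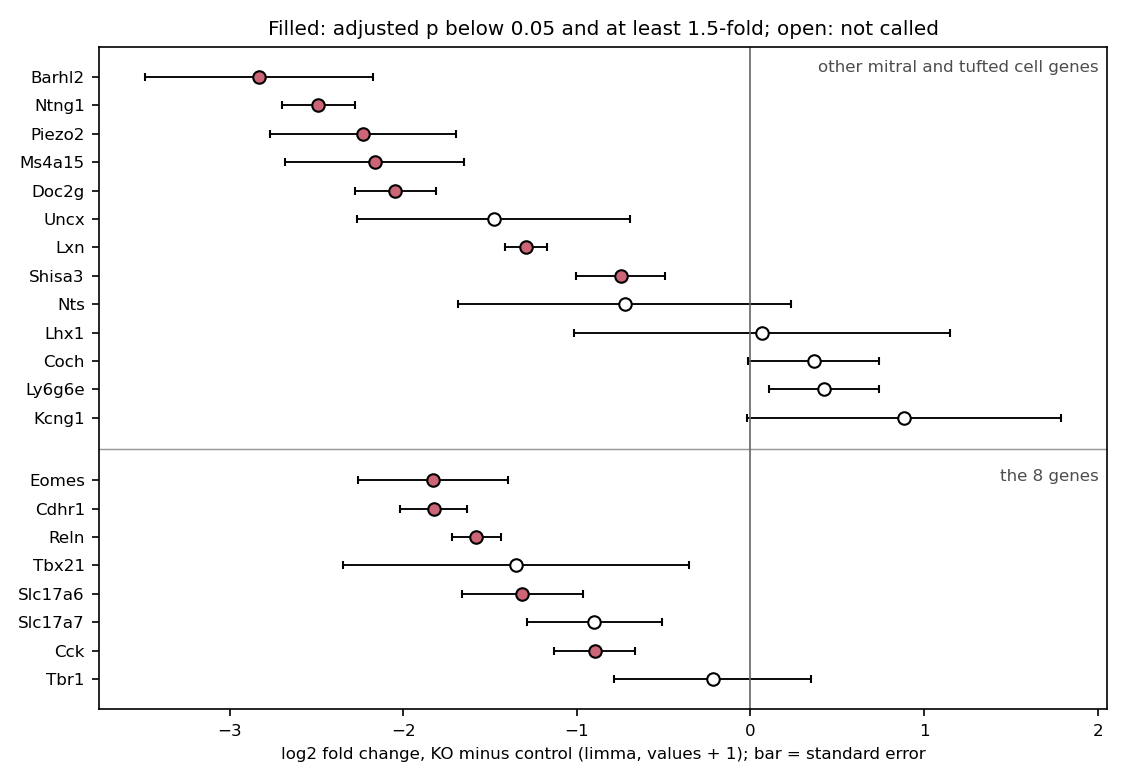
Log2 fold change, KO minus control, with its standard error (limma on log2 of the normalized count plus 1) for the 8 genes (lower block) and for 13 of the 14 other M/T genes tested (upper block). Filled points passed adjusted p 0.05 and 1.5-fold, and all 12 of them lie to the left of 0, between -2.83 for Barhl2 and -0.75 for Shisa3. Barhl2 rests on 0 to 9 reads a library.

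Neuronal genes in general were lower in KO, several by more than the M/T genes. The share of all genes tested that was called lower was 28.8%. Of 14 pan-neuronal genes 13 fell and 0 rose (median log2 fold change -2.04), and their summed level went from between 23737 and 28512 normalized counts in controls to between 4292 and 6823 in KO. The log2 fold change was -2.51 for Snap25, a SNARE protein of synaptic release, -2.65 for the dendritic protein Map2 and -2.75 for the calcium sensor Syt1. Of 17 genes of bulb interneurons 15 fell (median -3.13), among them the transcription factor Meis2 (-3.41) and the enzymes of GABA synthesis, Gad2 (-2.77) and Gad1 (-3.13). All 5 tested genes of immature neurons fell (median -3.67), among them Dcx and Sox11. Of 10 olfactory sensory neuron genes 5 fell (median -1.19), with Gnal at -0.94, Stoml3 at -1.45 and Omp at -1.78. Whether the M/T genes fell less than the interneuron genes was not tested.

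**Figure D3:**
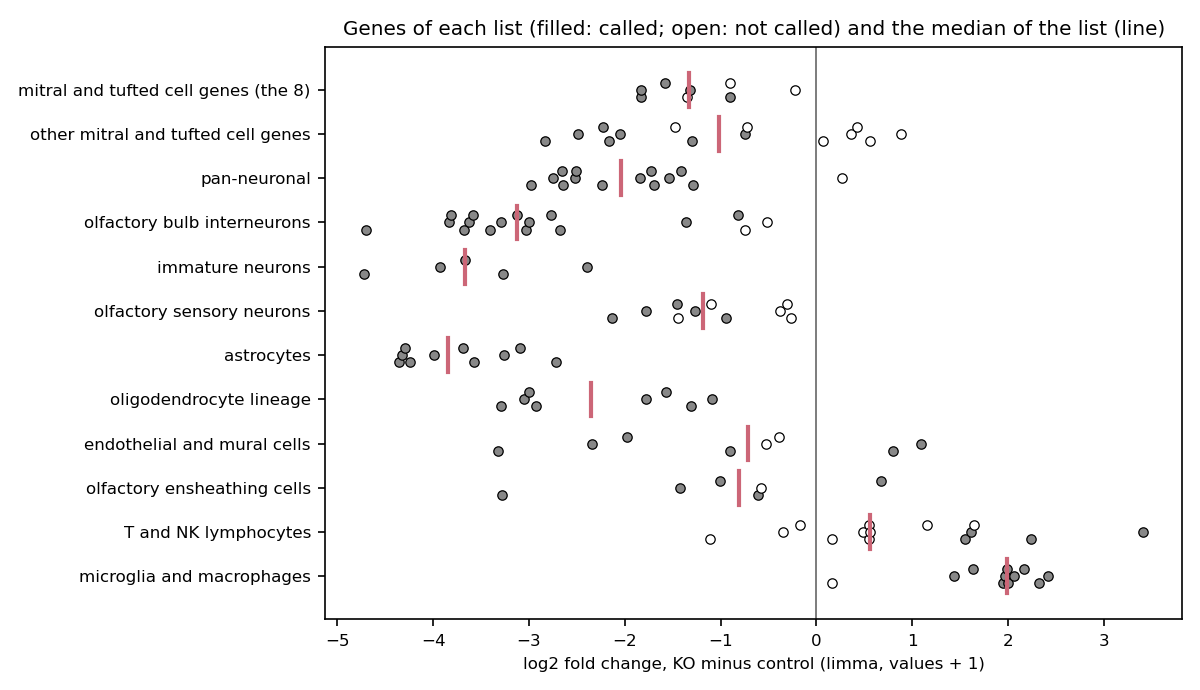
Log2 fold change, KO minus control, of every tested gene of 12 lists (limma on log2 of the normalized count plus 1). Filled points were called, open points were not, and the vertical line is the median of the list, which is -1.33 for the 8 genes, -2.04 for pan-neuronal genes, -3.13 for interneuron genes, -3.84 for astrocyte genes and 1.995 for microglia and macrophage genes.

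Relative to the summed pan-neuronal genes of the same library, 4 of the 8 genes (Tbr1, Slc17a7, Reln and Cck) were higher in every KO library than in every control, and the other 4 overlapped. The same separation was found for 73.9% of all genes tested, which makes 4 of 8 no more than the background. The differences of the means were 2.13 for Tbr1, 1.44 for Slc17a7, 0.77 for Reln and 1.45 for Cck on the log2 scale. For Eomes and Cdhr1 both differences were 0.52, smaller than the range of the KO libraries. Relative to the summed interneuron genes 6 of 8 were higher in every KO library (76.4% of all genes), and relative to the summed astrocyte genes 7 of 8 (90.7%). Relative to the summed microglia and macrophage genes 8 of 8 were lower in every KO library (84.9%). The comparison with these sums was added after the values were seen.

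**Figure D4:**
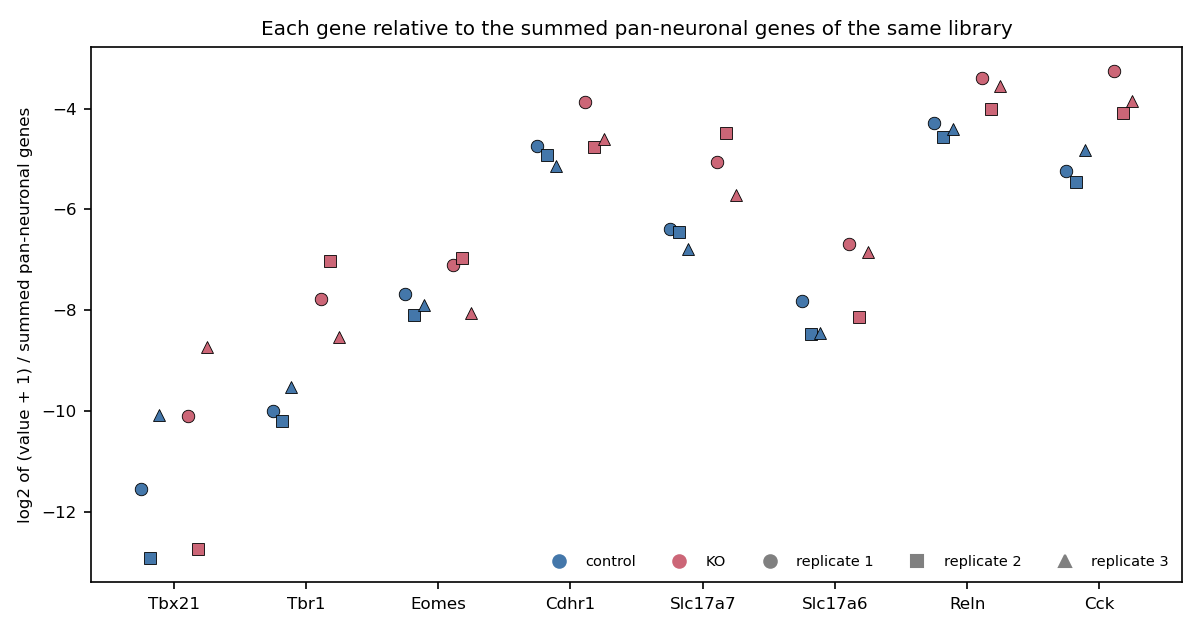
Log2 of each gene's normalized count plus 1, divided by the summed normalized counts of 14 pan-neuronal genes in the same library (vertical axis), for 3 control and 3 KO libraries. Tbr1, Slc17a7, Reln and Cck have every KO library above every control, whereas Tbx21, Eomes, Cdhr1 and Slc17a6 overlap.

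Markers of other cell types that could be in the sort also moved, beside 28.8% of all genes tested called lower and 22.2% called higher. All 10 astrocyte genes fell (median -3.84), among them the glutamate transporters Slc1a2 (-4.30) and Slc1a3 (-2.72) and the water channel Aqp4 (-3.26). Of 11 microglia and macrophage genes 10 rose and 0 fell (median 1.995), with Csf1r at 1.995 and C1qb at 2.17. All 8 oligodendrocyte lineage genes fell (median -2.35), among them Mbp and Mobp. Of 8 endothelial and mural genes 4 fell and 2 rose (median -0.72), with Flt1 higher (0.80) and Pdgfrb (-3.33) and Rgs5 (-2.34) lower, and of 6 olfactory ensheathing cell genes 4 fell and 1 rose (median -0.81), with Pmp22 higher (0.67) and Frzb (-1.01) and Npy (-0.60) lower. The call of Npy was lost with edgeR (adjusted p = 0.10) and in 10 other settings, and that of Pmp22 with quantile normalization (0.22) and without control replicate 3 (0.57), as well as with either scaling to the same total.

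Because Tbx21 and Eomes also act in lymphocytes, 16 genes of T and NK cells were examined beside them. Of the 14 tested, 4 rose and 0 fell (median log2 fold change 0.56), while 22.2% of all genes tested were called higher. The summed level of the list ranged from 243 to 424 normalized counts in controls and from 777 to 982 in KO. Most of that sum came from Cd4, which microglia and macrophages can also express, at 352, 158 and 140 in controls and 659, 512 and 678 in KO, and from Klrk1 (NKG2D), at 14.6, 25.5 and 11.0 in controls and 175, 183 and 184 in KO. Ifng was uneven, with 57.6 normalized counts in KO replicate 1 and at most 23.6 elsewhere. The defining T cell gene Cd3e was at 9.16 ± 4.11 in controls and 13.9 ± 5.48 in KO and not called, and Gzma was at 0 in every library. Cd3d and Cd8b1, named after their values were seen, were at means of 4.99 and 11.7 normalized counts in controls and 3.17 and 4.56 in KO and were not called. Prf1 and Nkg7, also named after their values were seen, were called higher (limma, adjusted p = 0.0146 and 0.0462). Their means were 1.21 and 2.62 normalized counts in controls and 8.65 and 8.86 in KO, and every KO library was above every control. Most genes of this list rest on a few reads, and the part of lymphocytes in the values of Tbx21 and Eomes was not tested.

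Genes whose levels followed Cdhr1 most closely were sought among 13161 genes outside the 8 that averaged 50 or more. Over the 6 libraries Pearson's r on the log2 scale was 0.999 for Rrs1, a ribosome assembly factor, 0.999 for Th, the rate-limiting enzyme of dopamine synthesis in periglomerular cells, and 0.998 for 2810001G20Rik, Slc29a2 and Ankrd35. Th was at 428, 366 and 389 normalized counts in controls and at 75.4, 54.5 and 27.3 in KO. In all, 60 genes had r of at least 0.99. The 6 points form a control and a KO cluster, so these values mostly restate the group difference and the order of 3 libraries within each group.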

How the data were processed

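RNA from TurboRFP-positive cells was prepared by the authors with the NuGEN Trio kit from 10 ng of total RNA. Per the labels and methods, reads were aligned with STAR (v2.5.0a) to mm10, counted on genes with GenomicAlignments and normalized with DESeq2 (v1.20.0). Which annotation was used, and whether strand was, is stated nowhere in those sources. The deposited signal values, named RPM, hold read counts scaled by a size factor: 100% of the values of every library were whole reads within 0.01 read, although for KO replicate 1 the value of 1 read, 0.993, is too near 1 for this to be told by the step alone. Depth was 18242129 to 86906527 reads.

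Values were tested with limma (3.58.1, R 4.3.3, variance trend, two-sided) on log2(value + 1) for the 18413 genes averaging 1 or more across the 6 libraries (6008 were left out), and p-values were adjusted by Benjamini-Hochberg over all of them. Called genes had adjusted p below 0.05 and at least 1.5-fold change. Fold changes are on this scale and understate changes of low genes. Reads were also tested with edgeR (4.0.16) and DESeq2 (1.42.0), and the fits were tested on simulated data. The labels do not name litters or batches, and the p-values measure the spread between 3 mice a group. Intervals are exact Poisson intervals, per-kb levels use the union of exons in GENCODE vM21 (GRCm38), and promoters come from RefSeq (GRCm38.p6). Named genes were the 8 genes, Sox9, the 3 most abundant genes of each list and the 5 genes most correlated with Cdhr1, and exceptions are stated; a few genes of the lists are counted but not reported here by name. Tables and figures were made with Python (3.11.15) and matplotlib (3.10.9). The 8 genes and all lists were chosen with earlier results of these data known.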

Additional observations from a re-analysis of the deposited data

How the results depend on the processing

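Of the 8 genes, 5 were called lower in KO, and the alternatives gave 3 (quantile normalization), 6 (same total, same total without Rn45s, unadjusted p and the replicate block) or 5, with 4 to 6 when a library was left out. The count of higher genes was 0 throughout. The median log2 fold change of -1.33 became -1.05 with a pseudocount of 5, -0.67 with quantile normalization and -1.61 with the same total without Rn45s, and ranged from -1.60 to -1.14 when a library was left out. Quantile normalization moved the median of all genes from -0.07 to 0.19, the same total to -0.29 and the same total without Rn45s to -0.37. Of all 18413 genes tested, 5299 were called lower as deposited. That count was 4117 with quantile normalization, 6191 with the same total, 6597 without Rn45s and 5227 with the replicate block. Named genes kept direction and call under every alternative in 41 of 57 cases. Under quantile normalization Eomes (-1.01, adjusted p = 0.0712) and Slc17a6 (-0.44, adjusted p = 0.317) were not called, and without KO replicate 3 Cck was not (-0.72, adjusted p = 0.0509). Slc17a7 was called with the same total, the same total without Rn45s (-1.23), the replicate block (adjusted p = 0.0397) and without KO replicate 2. Tbx6, not called as deposited, was called higher with quantile normalization (1.40). Flt1 (0.56 and 0.47), Mga (0.46 and 0.37) and Pmp22 (0.43 and 0.34) were not called with the same total and the same total without Rn45s, and Mga (0.28), Rrs1 (-0.42) and 2810001G20Rik (-0.59) not with quantile normalization. Npy lost its call in 11 settings. The cause of each was not tested.

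Tbr1 turned positive with quantile normalization (0.58), edgeR (0.17), DESeq2 (0.074), without control replicate 3 (0.05) and without KO replicate 3 (0.27), within -0.82 to 0.27 over the libraries left out. Tbx18 turned negative with the same total (-0.21), without Rn45s (-0.29), edgeR (-0.057), DESeq2 (-0.10) and without control replicate 1 (-0.28), control replicate 3 (-0.07) or KO replicate 2 (-0.13), within -0.28 to 0.43. Slc17a8 was 0.47 without control replicate 2 (leave-one-out range -1.50 to 0.47), Crk 0.0047 without KO replicate 2 (-0.14 to 0.0047), and Ifng -0.05 without control replicate 2 and -0.49 without KO replicate 1 (-0.49 to 1.18). None of these genes was called in any of the fits. Tbx21 was not tested with a minimum mean of 10.

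Over all genes tested, same-numbered control and KO libraries did not deviate together (correlations of -0.05, -0.01 and -0.01). With 3 libraries a group these correlations cannot decide whether the numbers pair the mice, and the labels do not say. With the replicate block 6 of the 8 genes and 9275 of all genes were called, against 5 and 9389 without it. Tbx21 rests on 0 to 16 reads a library and Tbr1 on 7 to 131, and for both the spread between libraries of a group also exceeded counting error.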

Other observations

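The genes with the highest value in KO replicate 2 relative to the next KO library, among genes averaging 50 normalized counts or more, included several neuronal genes. Dlx2, an interneuron factor, was at 2.98, 31.98 and 6.08 normalized counts in KO replicates 1, 2 and 3, and Csmd3 was at 265, 1348 and 333, with 1173, 1186 and 1349 in controls. Sorcs3, a neuronal sorting receptor, was at 32.8, 156 and 34.9 in KO and at 127, 195 and 208 in controls. Tenm2, a teneurin of synaptic adhesion, was at 41.7, 191 and 51.7 in KO and at 235, 209.9 and 306 in controls. In KO replicate 2 these genes lay nearer the controls than in the other KO libraries. Slc17a6, Cdhr1 and Cck were not among them. These genes were chosen after the values were seen, and nothing was tested on them.

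The ratio of Cck to its receptor Cckbr was 6.69, 5.34 and 7.32 in controls and 57.5, 8.87 and 8.91 in KO. The first KO value rests on 8 reads of Cckbr. The ratio of Cck to Cdhr1 was 0.707, 0.695 and 1.24 in controls and 1.53, 1.62 and 1.70 in KO, with no overlap, whereas that of Reln to Cdhr1 was 1.38, 1.29 and 1.66 in controls and 1.40, 1.69 and 2.10 in KO, with overlap.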
